A study of Mus musculus with 8 samples.

Results

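The 35 genes described here carry glucose through glycolysis or answer to low oxygen: 21 encode glucose and lactate transporters, glycolytic enzymes and their regulators, and 14 are other hypoxia response genes. They were chosen by symbol, with no threshold on their values but with earlier results of these data known. Of these genes, 29 were among the 10772 that could be tested on the array. In glycolysis, glucose enters the cell through transporters, is split into a pair of three-carbon sugars and ends as pyruvate or lactate, with a net gain of ATP that needs no oxygen. When oxygen falls, prolyl hydroxylases no longer mark the HIF alpha proteins for destruction, and HIF then binds short promoter and enhancer sequences and raises the transcription of most glycolysis genes together with genes for collagen hydroxylation, mitochondrial turnover and oxygen sensing itself. In the limb bud the condensing cartilage has few vessels, and HIF1A is known to be needed for the survival and differentiation of growth plate chondrocytes.

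The cells were EGFP-positive hindlimb cells of mouse embryos at E12.5, on a mixed C57BL/6J and 129 background, sorted by fluorescence. The null group (4 arrays) came from homozygous embryos in which EGFP, placed behind the start codon of Bapx1, took the place of the protein. Bapx1 encodes a homeobox transcription factor that is needed for the axial skeleton and the spleen and can repress or activate genes, depending on the tissue. The wildtype group (4 arrays) came from embryos that keep a working Bapx1 and carry EGFP behind an internal ribosome entry site in its 3' untranslated region. Both reporters were built to be driven by the Bapx1 locus, but through different constructs, and a difference in the cells that each gate took cannot be told apart from the genotype. Total RNA was read on Illumina MouseWG-6 v2 arrays, 1 array per sample. The study calls the samples biological replicates, and how many embryos entered each was not given in the sources used here. In bulk RNA, fewer cells of a type and less RNA per cell cannot be told apart.

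Between 18375 and 20256 probes per array rose above background. The hindlimb markers Pitx1, Tbx4 and Hoxc10 were detected on all 8 arrays. Of 19568 tested probes, 149 were called (limma, adjusted p under 0.05), with 63 higher in null cells and 86 lower. The brighter of the Bapx1 probes (listed as Nkx3-2) stood at log2 9.01, 8.76, 7.97 and 8.19 on the null arrays and at 4.67, 4.54, 4.45 and 4.41 on the wildtype arrays, where it never rose above background, a difference of at least 10.4-fold (limma, adjusted p = 9.52e-05). The second probe was likewise above background on all 4 null arrays and on 0 wildtype arrays. The wildtype allele keeps Bapx1, so these probes did not detect the transcript that the wildtype sort was designed to mark, and the cause was not tested. Where the probes lie relative to the inserted sequences was not tested either, so they do not check the loss of the protein, and the higher level on the arrays labelled null is the opposite of what a probe in removed sequence would read. Directions in what follows rest on the sample titles.

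The promoters of the members were examined first for the core of the hypoxia response element, the letters that HIF contacts. The search covered ACGTG, with its reverse complement CACGT, and GCGTG, with its reverse complement CACGC, on both strands of windows of 300 bases, from 250 before to 50 after each annotated start (RefSeq, GRCm38.p6). ACGTG and CACGT overlap where a promoter reads CACGTG. A total of 32 of the 35 members had at least 1 window, and Slc2a3, Bnip3l and Ndrg1 had none in the table used. ACGTG was present in 26 of the 47 member windows (55.3%), against 19.6% of all 32851 windows. GCGTG was present in 27 member windows (57.4%), against 32.4% of all windows. Both cores hold a CG, and the median number of CG dinucleotides was 21 in the member windows and 7 in all windows. Among the 8148 windows with at least 21 CG dinucleotides, 29.0% held ACGTG and 64.0% held GCGTG. By this count ACGTG was more frequent in the member windows than in these CG-rich windows, whereas GCGTG was not. The sets were not matched for CG, since 21 was the median of the member windows but the minimum of the CG-rich ones. How GCGTG compares with windows of equal CG content therefore cannot be read from this count. Windows of neighbouring starts of 1 gene can overlap, and many members were listed as HIF targets, so this count is not independent of how they were chosen. A match describes letters only and does not show that HIF was bound in these cells.

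The windows of 30 bases below surround the ACGTG or CACGT nearest to the start in 7 members whose levels are given further on. These genes were among those with the lowest p-values of their group or are among its best known HIF targets. Capitals mark each core, written 5′ to 3′ on the strand of the gene.
Slc2a1: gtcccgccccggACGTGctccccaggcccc
Pgk1: aaatggaagtagCACGTctcactagtctcg
Ldha: cgtgggttcccgCACGTccgctgggctccc
Aldoc: cccccagggagtCACGTagctctgcggcaa
Ankrd37: cagtgtttgggtACGTGaggccgcagcggg
P4ha2: cgggaggtggggACGTGgcggaggctcaag
Egln3: tgtgcatctcagACGTGagatccaggtttt
The Slc2a1 window lies at chr4:119108697-119108726 on the plus strand, the Pgk1 window at chrX:106186957-106186986 on the plus strand and the Ldha window at chr7:46845758-46845787 on the plus strand. The Aldoc window lies at chr11:78323088-78323117 on the plus strand, with its core just inside the transcribed part. The Ankrd37 window lies at chr8:45999839-45999868 on the minus strand, the P4ha2 window at chr11:54100922-54100951 on the plus strand and the Egln3 window at chr12:54204086-54204115 on the minus strand. The first base of the core stands 6 bases before the start in Ankrd37, 34 in Ldha, 36 in Slc2a1, 131 in Pgk1 and 229 in Egln3. In P4ha2, as in Aldoc, the core lies just inside the transcribed part. Aldoa, P4ha1, Hif1a and Gapdh, also described below, held ACGTG or CACGT as well and are not shown. Pfkl and Kdm3a, also described below, held no ACGTG in their windows.

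A total of 32 of the 35 members had a named probe on the array. Hk2, Gpi1 and Eno1 had none under the symbols used here. Eno1b, a near-identical copy of the enolase gene that is not a member, gave a log2 fold of -0.40 ± 0.24 (SE, adjusted p = 0.579). Of 57 member probes with values, 33 were detected on all 8 arrays and 11 on none. Probes detected on at least 4 arrays were tested, which left 42 probes of 29 members: 17 glycolysis genes and 12 other hypoxia response genes. Pfkfb3, Bnip3 and Adm did not pass. Pfkfb3 was above background on 1 wildtype array, Adm on 2 wildtype arrays and Bnip3 on none. A gene with several probes is given by its brightest tested probe unless another is named, and all levels are log2 normalized intensities.

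No member was called. In null cells 0 of the 29 members were called higher and 0 lower (limma, Benjamini-Hochberg over 19568 probes), against 0.334% of all tested genes called higher and 0.613% called lower. The signs of the small differences were uneven all the same. The log2 fold, null minus wildtype, was negative for 27 of the 29 members, against 57.7% of all tested genes. At an unadjusted p under 0.05 (limma), 7 members were lower and 0 higher in null cells, against 6.31% and 5.2% of all genes. The number of members at this threshold, in either direction, depended on the processing. It was 0 under scaling by median absolute deviation, 9 with no filter, and 2 to 6 with 1 array left out. The null arrays lay wholly below the wildtype arrays for 4 members (Aldoc, Pfkl, Slc2a1 and P4ha2) and wholly above for 0, against 4.4% and 2.73% of all genes. These genes were measured on the same 8 arrays and are not independent of each other. Their list was also drawn up with earlier results of these data known, so these counts are a description only.

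The size of the differences was small. The median log2 fold was -0.16 for the glycolysis genes, with a range of -0.50 to 0.14, and -0.33 for the other hypoxia response genes, with a range of -0.40 to -0.04. Over all tested genes it was -0.04, and over the 3680 genes at least as bright as the median member it was -0.01, with 53.7% negative. The median SE of a log2 fold was 0.154 for the members and likewise 0.154 for all genes. Scaling the arrays by median absolute deviation, the kind of normalization that the study's methods name, moved the median of all genes to 0.06. Its negative share was then 41.7%, and 20 of the 29 members (69.0%) were negative.

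**Figure D1:**
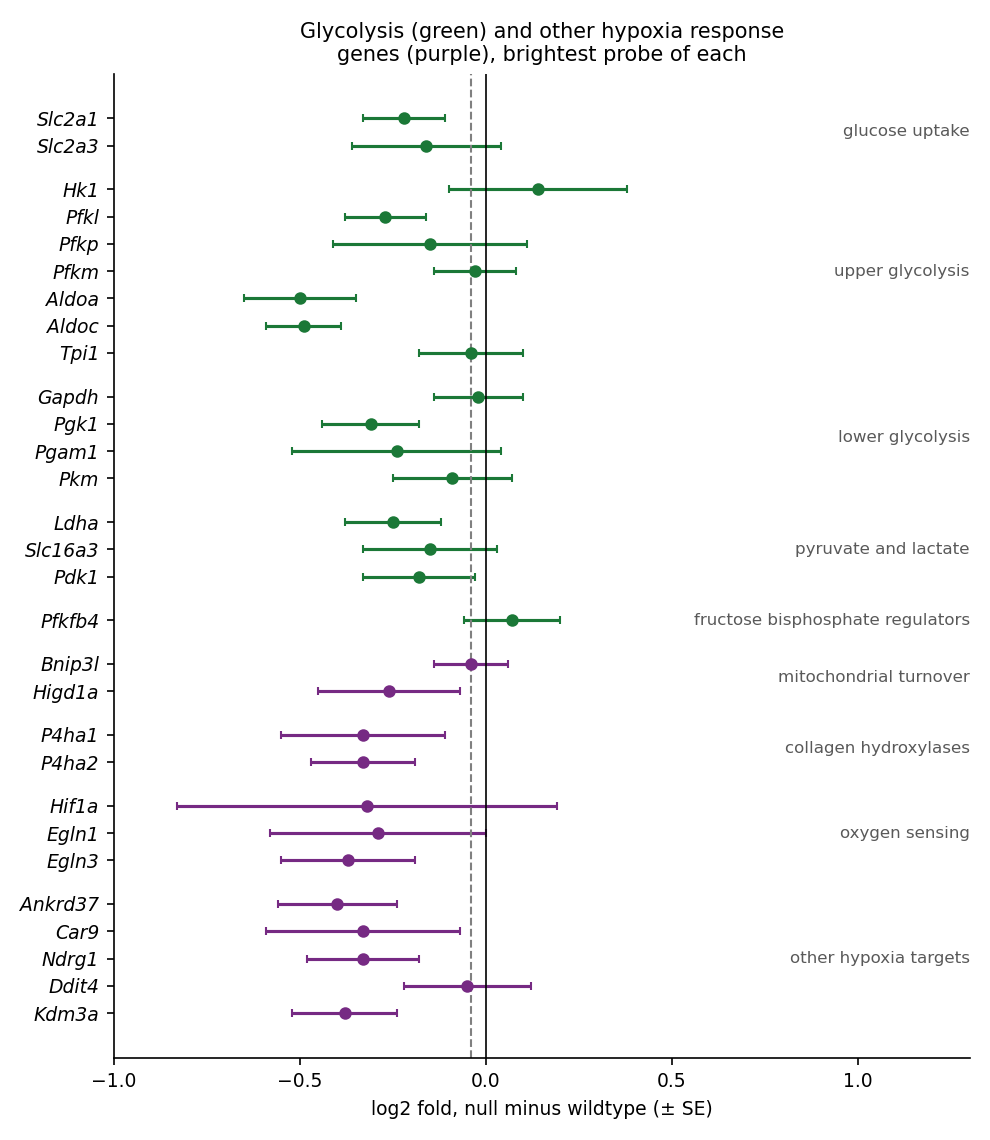
Log2 fold, null minus wildtype, of the 29 tested members by their brightest probe, with bars of 1 SE (4 null and 4 wildtype arrays); glycolysis genes are green and other hypoxia response genes purple. The solid line marks 0 and the dashed line the median of all tested genes (-0.04); 27 of the 29 points lie left of 0, and only Hk1 and Pfkfb4 lie right of it.

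**Figure D2:**
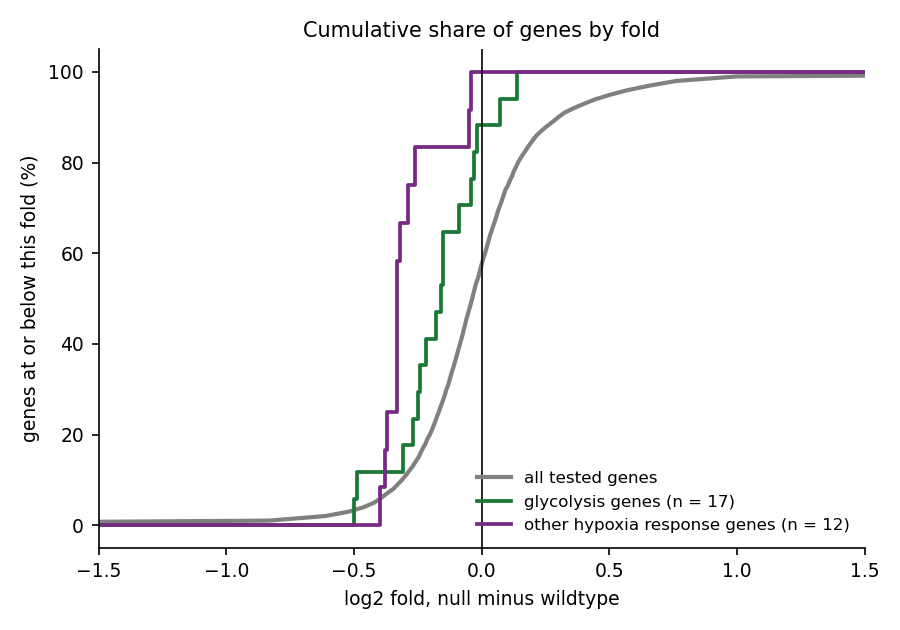
Cumulative percentage of genes at or below each log2 fold (null minus wildtype), for 17 glycolysis genes, 12 other hypoxia response genes and all 10772 tested genes. The line of the other hypoxia response genes reaches 100% left of 0, while the line of all genes crosses 0 at 57.7%.

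The glycolysis genes are taken in the order of the pathway. Glucose enters through the facilitative transporters encoded by Slc2a1 and Slc2a3. Slc2a1 stood at 10.41, 10.60, 10.50 and 10.55 on the null arrays and at 10.68, 10.88, 10.64 and 10.74 on the wildtype arrays. Every null array was below every wildtype array, and the log2 fold of -0.22 ± 0.11 was not called (limma, adjusted p = 0.489). Slc2a3 gave -0.16 ± 0.20, with overlapping groups.

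Hexokinase 1, encoded by Hk1, traps glucose in the cell as its phosphate. Its brighter probe was above background on only 3 null and 1 wildtype arrays, and its log2 fold of 0.14 ± 0.24 was the highest among the members by their brightest probes. Phosphofructokinase, which commits the sugar to glycolysis, has 3 subunit genes. Pfkl, the liver-type subunit, stood at 11.39, 11.58, 11.50 and 11.44 on the null arrays and at 11.76, 11.76, 11.62 and 11.87 on the wildtype arrays. The groups did not overlap, and the log2 fold was -0.27 ± 0.11 (adjusted p = 0.377), while its dimmer probe gave -0.15. Pfkm, the muscle-type subunit, showed -0.03 ± 0.11, and Pfkp, the platelet-type subunit and close to background, showed -0.15 ± 0.26.

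Aldolase splits the doubly phosphorylated sugar, and its genes had the most negative folds among the glycolysis members by their brightest probes. Aldoa stood at 9.65, 9.86, 10.19 and 9.97 on the null arrays and at 10.59, 10.18, 10.49 and 10.40 on the wildtype arrays. Only null replicate 3 reached the lowest wildtype array, and the log2 fold was -0.50 ± 0.15 (adjusted p = 0.236). Aldoc, the brain-type aldolase, stood at 5.52, 5.63, 5.68 and 5.74 on the null arrays and at 6.20, 6.05, 6.08 and 6.17 on the wildtype arrays. Its replicates were tight and its groups well apart, with a log2 fold of -0.49 ± 0.10, and it had the lowest adjusted p of any member (0.0933). Aldoc was detected on all 8 arrays but lay near the dim end, where the lowest signal that counted as detected was between 4.99 and 5.2. With no filter on dim probes it was the only member called (limma, adjusted p = 0.035), and in the other alternatives its adjusted p lay above 0.05. Tpi1, which interconverts the split sugars, differed between its probes: the brighter gave -0.04 ± 0.14, and the second, singled out after its values were seen, gave -0.34 ± 0.13 (adjusted p = 0.382).

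The lower part of glycolysis, where ATP is made, was read by 4 genes. Pgk1, the first ATP-forming kinase, stood at 11.54, 11.49, 11.86 and 11.71 on the null arrays and at 12.09, 11.92, 12.03 and 11.81 on the wildtype arrays. Null replicate 3 lay above wildtype replicate 4, and the log2 fold of -0.31 ± 0.13 was not called (adjusted p = 0.397). Gapdh, the dehydrogenase just before it and a common reference gene, stood at 12.45, 12.36, 12.62 and 12.37 on the null arrays and at 12.55, 12.26, 12.49 and 12.59 on the wildtype arrays. Its groups were intermixed, with a log2 fold of -0.02 ± 0.12 (adjusted p = 0.964), and its sign turned under scaling by median absolute deviation (0.21). Pgam1, a mutase, gave -0.24 ± 0.28 and a near-equal value from its second probe (-0.26 ± 0.21). Pkm, the pyruvate kinase at the end of the pathway, gave -0.09 ± 0.16.

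The genes that decide the fate of pyruvate were negative as well. Ldha, which makes lactate, stood at 11.38, 11.60, 11.84 and 11.73 on the null arrays and at 11.98, 12.01, 11.83 and 11.71 on the wildtype arrays. The groups overlapped at wildtype replicates 3 and 4, and the log2 fold was -0.25 ± 0.13 (adjusted p = 0.542). Slc16a3, the lactate exporter, gave -0.15 ± 0.18 near background, and Pdk1, which inhibits pyruvate dehydrogenase in the mitochondrion, gave -0.18 ± 0.15. A dimmer second probe of Pdk1 gave the opposite sign (0.28 ± 0.40) with a wide error. Pfkfb4, which makes the activator of phosphofructokinase, was the other member with a positive value (0.07 ± 0.13).

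**Figure D3:**
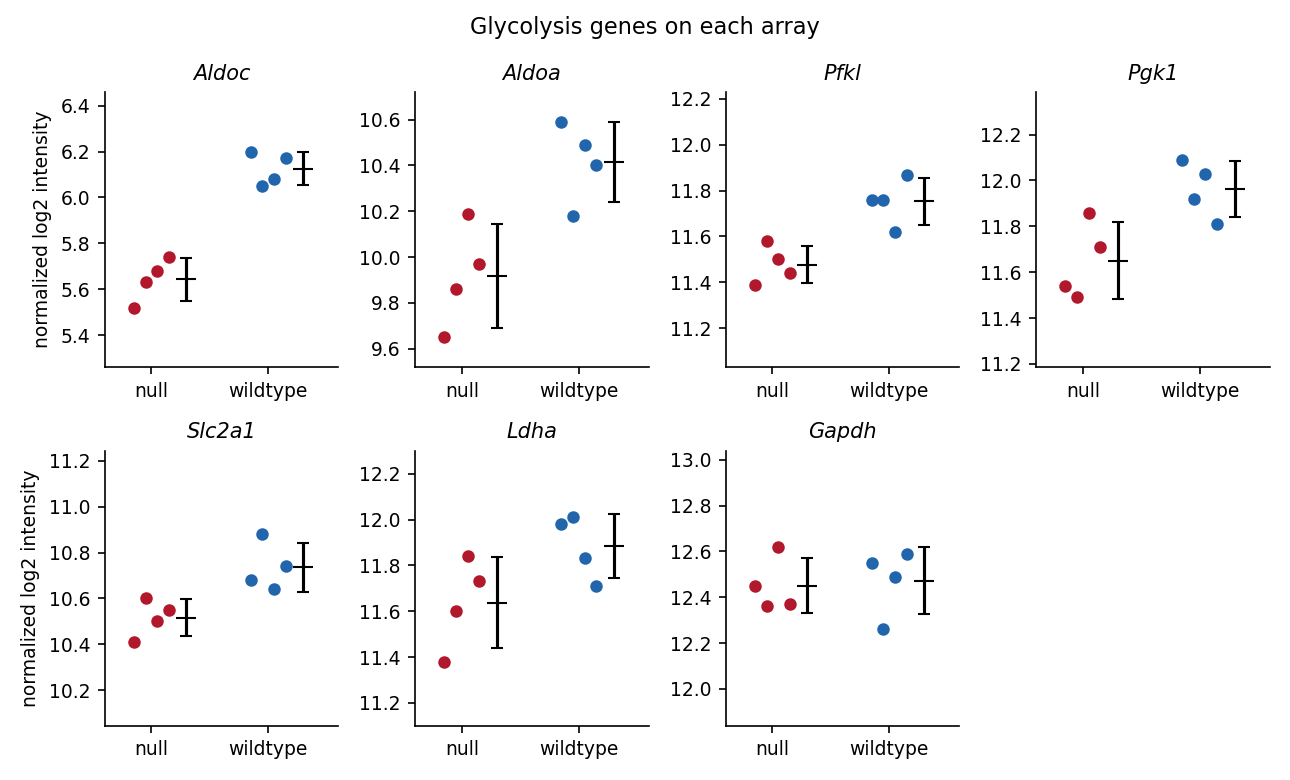
Normalized log2 intensity of 7 glycolysis genes on the 4 null (red, left) and 4 wildtype (blue, right) arrays; each point is 1 array and the black bar is the mean ± SD of its group, and the vertical axes differ between panels. Null points lie wholly below wildtype points for Aldoc, Pfkl and Slc2a1, and the groups are intermixed for Gapdh.

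The other hypoxia response genes were negative in 12 of 12 cases, against 57.7% of all tested genes. At an unadjusted p under 0.05 (limma), 3 of them were lower, against 6.31% of all tested genes. Collagen prolyl 4-hydroxylase, which hydroxylates collagen chains so that the triple helix is stable, has alpha subunits encoded by P4ha1 and P4ha2. P4ha2 stood at 8.99, 9.31, 9.35 and 9.34 on the null arrays and at 9.45, 9.74, 9.40 and 9.70 on the wildtype arrays. The groups did not overlap for this probe (log2 fold -0.33 ± 0.14, adjusted p = 0.41) nor for its second one (-0.41 ± 0.14, adjusted p = 0.302). P4ha1 stood at 7.69, 7.44, 8.07 and 7.74 on the null arrays and at 7.73, 7.96, 7.88 and 8.68 on the wildtype arrays. Its 2 probes gave similar folds (-0.33 ± 0.22 and -0.32 ± 0.27), but wildtype replicate 4 was the highest wildtype array by the first (8.68) and the lowest by the second (5.78, against 6.78 to 7.13). Without that array the brighter P4ha1 probe gave -0.12.

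Kdm3a is a histone demethylase and a well-known HIF target. It stood at 11.04, 10.79, 10.68 and 10.83 on the null arrays and at 11.40, 11.13, 11.38 and 10.94 on the wildtype arrays. Only null replicate 1 reached into the wildtype range, and the log2 fold was -0.38 ± 0.14 (adjusted p = 0.352). Its other tested probes gave -0.32 ± 0.25 and -0.39 ± 0.14, and the groups did not overlap for the probe that gave -0.39. Ankrd37, an ankyrin repeat protein gene used as a hypoxia marker, stood at 8.37, 8.52, 8.87 and 8.49 on the null arrays and at 8.79, 8.97, 8.78 and 9.31 on the wildtype arrays. Null replicate 3 lay within the wildtype range, and the log2 fold of -0.40 ± 0.16 was the most negative of the 12 (adjusted p = 0.397).

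Ndrg1, a stress and differentiation gene, stood at 5.99, 6.28, 6.62 and 6.36 on the null arrays and at 6.80, 6.54, 6.56 and 6.67 on the wildtype arrays. Null replicate 3 again overlapped with the wildtype arrays (log2 fold -0.33 ± 0.15, adjusted p = 0.45). A second Ndrg1 probe gave -0.58 ± 0.20 with no overlap (adjusted p = 0.323), the most negative value of any member probe. Car9, the surface carbonic anhydrase, gave -0.33 ± 0.26 near background. Ddit4, an inhibitor of mTOR signalling, gave -0.05 ± 0.17, and the mitochondrial genes Higd1a and Bnip3l gave -0.26 ± 0.19 and -0.04 ± 0.10.

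Of the oxygen sensing genes, Egln3, a HIF prolyl hydroxylase that HIF itself induces, stood at 7.56, 7.66, 7.81 and 7.73 on the null arrays and at 7.64, 8.32, 7.89 and 8.39 on the wildtype arrays. Wildtype replicate 1 fell within the null range, and the log2 fold was -0.37 ± 0.18 (adjusted p = 0.473). Egln1, the main sensor of oxygen, was close to background (-0.29 ± 0.29). Hif1a, the oxygen-regulated subunit of HIF, stood at 7.98, 7.56, 7.59 and 8.14 on the null arrays and at 9.05, 8.36, 8.77 and 6.37 on the wildtype arrays. Wildtype replicate 4 was far below all other arrays, so that the log2 fold was -0.32 ± 0.51 (adjusted p = 0.856). Without wildtype replicate 4 the Hif1a fold was -0.91 (adjusted p = 0.128), without wildtype replicate 1 it was -0.02, and without wildtype replicate 3 it was -0.11. HIF1A is regulated mainly through the stability of its protein, which these arrays do not read.

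**Figure D4:**
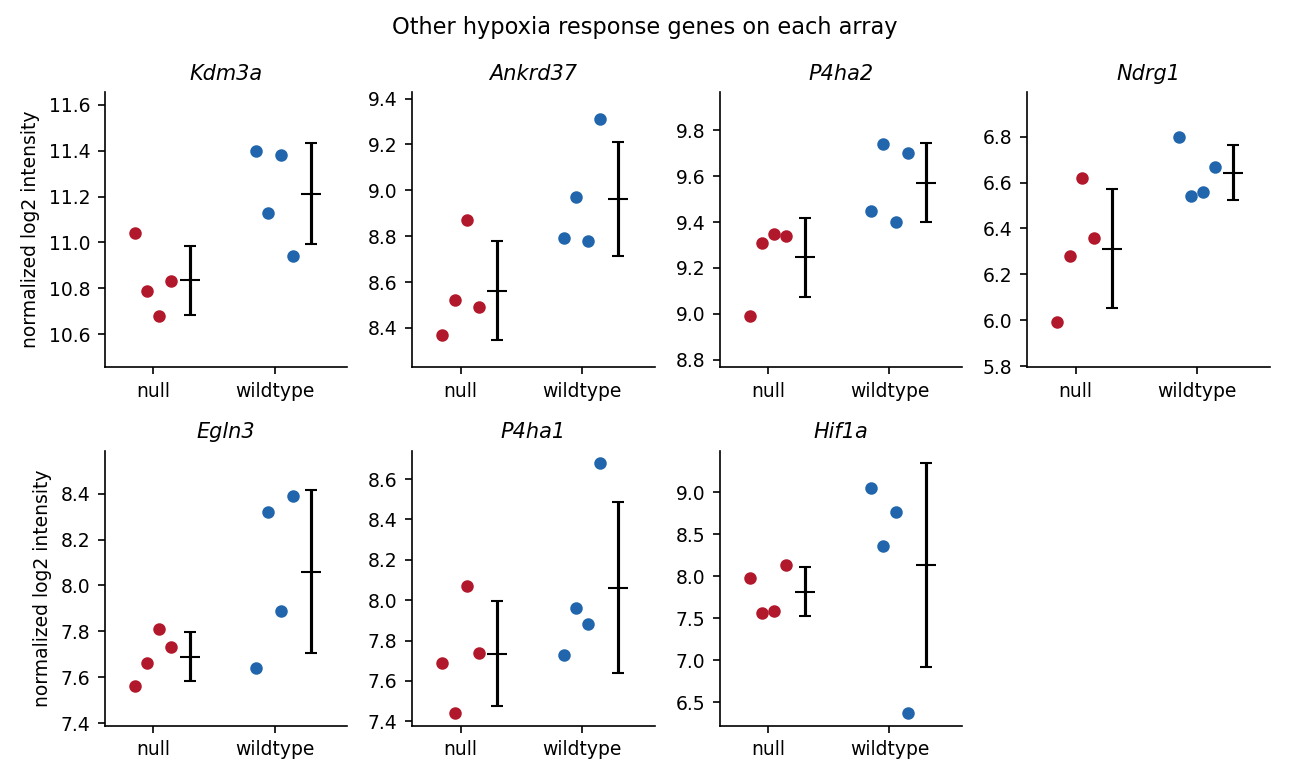
Normalized log2 intensity of 7 other hypoxia response genes on the 4 null (red, left) and 4 wildtype (blue, right) arrays; each point is 1 array and the black bar is the mean ± SD of its group, and the vertical axes differ between panels. The groups are apart for P4ha2, and 1 wildtype array (6.37) lies far below the others for Hif1a.

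Averaged over genes, each array could be given the mean deviation of a list from its mean over the 8 arrays. The glycolysis genes deviated by -0.20, -0.06, -0.01 and -0.07 on the null arrays and by 0.17, 0.09, 0.05 and 0.04 on the wildtype arrays. The other hypoxia response genes deviated by -0.27, -0.16, 0.02 and -0.15 on the null arrays and by 0.13, 0.15, 0.15 and 0.13 on the wildtype arrays. Both lists were lowest on null replicate 1 and, among null arrays, highest on null replicate 3. Without null replicate 1, the median fold was -0.12 for the glycolysis genes and -0.23 for the other hypoxia response genes.

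The HIF core in the promoter windows was set against the folds as a description. The 20 tested members with ACGTG had a median log2 fold of -0.27, and the 6 without had a median of -0.16. The difference between these medians was not tested, and the median SE of a single member's fold was 0.154. Glycolysis and other hypoxia response genes were not kept apart here. Over all tested genes with a window, the median was -0.04 for the 2575 with ACGTG and also -0.04 for the 6161 without.

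Further genes of the same pathways were read from lists, likewise drawn up with earlier results of these data known. Of 34 further HIF targets, 26 were tested, and 19 of them were negative, against 57.7% of all tested genes. Their median log2 fold was -0.11. In this list 0 were called higher and 1 lower, against 0.334% and 0.613% of all tested genes. The called gene was Ccng2, a cyclin-related inhibitor of proliferation that FOXO factors also induce. Ccng2 stood at 9.73, 9.06, 9.65 and 10.21 on the null arrays and at 10.99, 10.98, 11.04 and 10.72 on the wildtype arrays. Its groups were far apart, with a log2 fold of -1.27 ± 0.22 (limma, adjusted p = 0.0387). The call was lost without null replicate 1 or 3 or without any 1 wildtype array (adjusted p between 0.0597 and 0.152). Singled out after their values were seen, the lysyl hydroxylase genes Plod2 (-0.60 ± 0.14, adjusted p = 0.126) and Plod1 (-0.44 ± 0.14, adjusted p = 0.253) modify collagen like the P4ha enzymes. The lysyl oxidase gene Lox, of the same list, went the other way with the list's highest fold (0.72 ± 0.46, limma, adjusted p = 0.603). Vegfa, the vessel growth factor, gave -0.18 ± 0.11 (adjusted p = 0.571).

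Of 16 genes of the machinery that controls HIF 15 were tested, 7 negative and 8 positive, against 57.7% negative among all genes, with 0 called and a median of 0.04. The median was -0.06 under median centring, -0.05 with the mean of a gene's probes and -0.03 without wildtype replicate 4. The lowest p-values were those of Siah2, a ubiquitin ligase for the HIF hydroxylases (-0.35 ± 0.14, adjusted p = 0.382), and Hif3a (-0.32 ± 0.13, adjusted p = 0.391). Other isozymes and branches of glycolysis had a median of -0.08 over 17 tested genes of 30, with 0 called. Among these, Pdk2 gave -0.56 ± 0.15 (adjusted p = 0.185) and was above background on 1 null and 4 wildtype arrays, and the muscle mutase Pgam2 gave -0.51 ± 0.22 (adjusted p = 0.415).

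Of the lists for mitochondrial metabolism, oxidative phosphorylation had 26 of 45 tested genes negative, near the share of 57.7% over all genes, and a median log2 fold of -0.01. None of the 45 was called or reached an unadjusted p under 0.05 (limma), which 6.31% of all genes reached as lower and 5.2% as higher. The smallest p-values belonged to Ndufc2 (0.18 ± 0.11) of complex I and Atp5d (0.25 ± 0.18) of the ATP synthase. Of the 16 tested genes of the TCA cycle 14 were negative, against 57.7% of all genes, with a median of -0.08 and 0 called, and its smallest p-values belonged to the fumarase Fh1 (-0.18 ± 0.11) and the succinate ligase subunit Sucla2 (-0.42 ± 0.27). The step from pyruvate to acetyl-CoA had a median of -0.09 over 8 genes with 0 called: the phosphatase Pdp2, which activates pyruvate dehydrogenase, gave 1.33 ± 0.54 (adjusted p = 0.391), and the core subunit Dlat gave -0.28 ± 0.12 (adjusted p = 0.426). Of the branches that leave glycolysis, 5 genes of the pentose phosphate pathway had a median of 0.04 with 0 called (Pgls 0.14 ± 0.11, Rpia 0.07 ± 0.14), which turned to -0.12 under median centring, -0.06 in the deposited log2 table and -0.01 without null replicate 2. The 4 tested genes of serine synthesis had a median of 0.28 with 0 called (Shmt1 0.36 ± 0.22, Phgdh 0.32 ± 0.24).

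**Figure D5:**
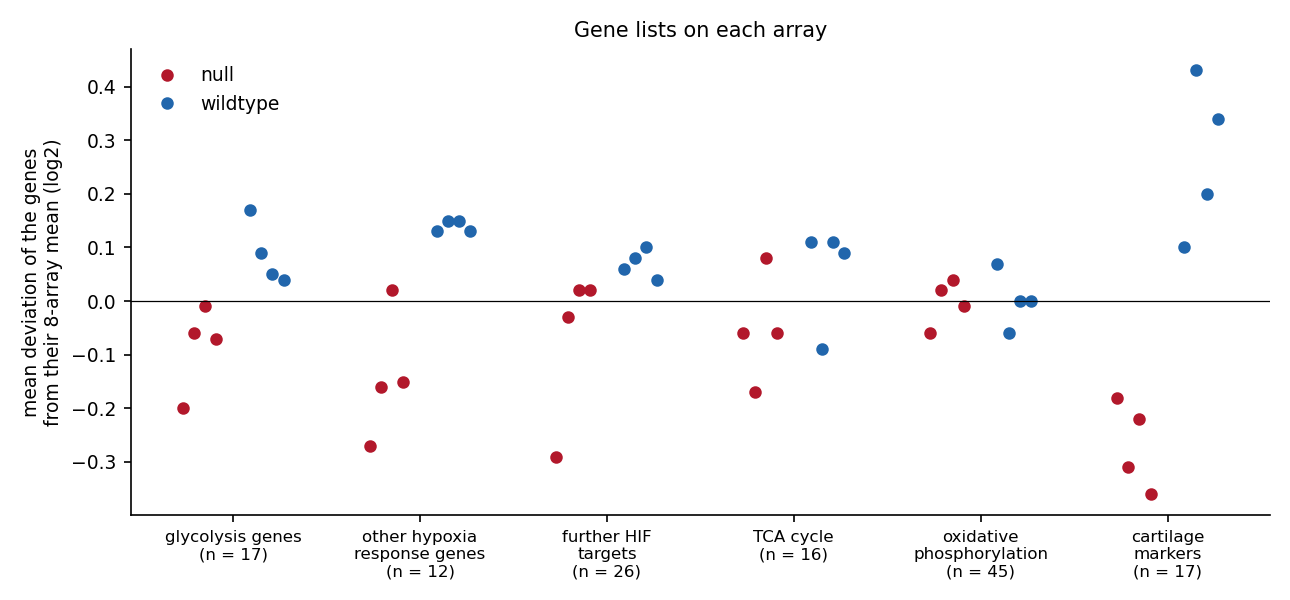
Mean deviation (log2) of the genes of 6 lists from their mean over the 8 arrays, with 1 point per array, null in red and left, wildtype in blue and right. Null points lie below wildtype points for the glycolysis genes, the other hypoxia response genes, the further HIF targets and the cartilage markers, and the groups overlap for the TCA cycle and oxidative phosphorylation.

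Markers of cell types differed between the same groups. Over all tested genes 57.7% had a negative fold, 0.334% were called higher and 0.613% were called lower. Of 17 tested cartilage genes, 16 were negative, 0 were called higher and 2 were called lower (the sulfotransferase Chst11, -0.99 ± 0.13, adjusted p = 0.00993, and the matrix protein Comp, -0.73 ± 0.12, adjusted p = 0.0318), with a median log2 fold of -0.61. The mean level of the cartilage list was 8.63 to 8.81 on the null arrays and 9.08 to 9.42 on the wildtype arrays. All 17 were above background on at least 1 array of each group, and 14 were on every null array and 14 on every wildtype array. Sox9, the chondrocyte master regulator, averaged 14.18 on the null arrays and 14.27 on the wildtype arrays (adjusted p = 0.835), and the cartilage collagen gene Col2a1 averaged 13.03 on the null arrays and 13.66 on the wildtype arrays (adjusted p = 0.134). Other defining genes were detected at low levels, among them Acan (5.28 on the null and 6.27 on the wildtype arrays), Matn1 (5.49 on the null and 7.01 on the wildtype arrays) and Hapln1 (5.39 on the null and 6.02 on the wildtype arrays), and Col9a3, Col11a1 and Col11a2 each missed detection on at least 1 array. Of 17 platelet and megakaryocyte genes, 15 were called lower, with a mean level of 5.25 to 6.18 on the null arrays and 7.77 to 8.0 on the wildtype arrays. All 17 were above background on every wildtype array, 6 were on every null array, and Gp6 was on no null array. Of 8 erythroid genes 1 was called higher (the globin Hbb-bh1), with a mean level of 7.75 to 9.91 on the null arrays and 6.76 to 7.30 on the wildtype arrays. Their median log2 fold was 2.3, and 6 were higher at an unadjusted p under 0.05 (limma), against 5.2% of all genes. The remaining erythroid genes, Klf1 and Epor, gave 0.02 ± 0.15 and -0.16 ± 0.17. The part of these cell types in the negative folds of the glycolysis and hypoxia response genes was not tested.

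The other marker lists held no called gene. Their median log2 folds were -0.41 for macrophages, -0.33 for endothelium, -0.22 for surface ectoderm, -0.42 for nerve and Schwann cells, -0.04 for limb mesenchyme, 0.25 for muscle and 0.13 for cell division. Single limb mesenchyme genes differed more than their median, from -0.54 to 1.43. Of the 11 tested, 6 were negative and 5 positive, and 0 were lower and 4 higher at an unadjusted p under 0.05 (limma), against 6.31% and 5.2% of all genes. Of genes that respond to tissue dissociation, the median was -0.04. Fos gave 1.69 ± 0.38 (limma, adjusted p = 0.105), Egr1 1.10 ± 0.21 (adjusted p = 0.0582) and Klf6 0.64 ± 0.20 (adjusted p = 0.266). Jun (-0.45 ± 0.11, adjusted p = 0.134) and Atf3 (-0.51 ± 0.16, adjusted p = 0.253) went the other way. Of the 12 tested, 2 were lower and 3 higher at an unadjusted p under 0.05 (limma), against 6.31% and 5.2% of all genes.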

How the data were processed

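RNA of 8 sorted hindlimb samples (4 null, 4 wildtype, grouped by title) was read on 1-colour bead arrays. The deposited intensity values were background-subtracted by the authors in GenomeStudio and not normalized between arrays. The deposited detection score rose with intensity, and 1 minus it was used as the detection p. In a second table deposited by the authors, log2 values equalled the log2 of the intensity floored at 1, less a value per array and a constant per probe of unknown origin; its column medians were 0.01, 0.17, 0.10 and 0.03 (null 1 to 4) and -0.03, -0.03, -0.04 and 0.42 (wildtype 1 to 4). Intensity rows were tied to probe names through these log2 values (35454 of 45281 rows to within 1e-05; the 9827 others were detected on no array). Of all probes in the platform annotation, tied or not, 34885 had 1 gene symbol, 18 had several and the rest none.

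Intensities were normalized by neqc (limma 3.58.1, R 4.3.3, offset 16), and probes with detection p under 0.05 on at least 4 arrays were fitted with lmFit and eBayes (two-sided, Benjamini-Hochberg over all tested probes). Precision is limited by having 4 arrays per group, and p-values measure the spread between these samples. Steps were tested on simulated data. Values on each array are given for the 6 members of each group with the smallest p, Slc2a1, Gapdh and Hif1a. Of the other pathway lists, called genes or else the 2 with the smallest p are named, with array values for the called Ccng2. Plod1, Plod2, Lox, Vegfa, the second Tpi1 probe and marker genes were named outside this rule, after their values were seen. Members and lists were chosen with earlier results of these data known. Same-numbered samples deviated together in some pairs only (correlations 0.07, 0.46, 0.26 and -0.31), so no block was used. Alternatives covered background correction, normalization, filters, the test, array weights and each array left out.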

Additional observations from a re-analysis of the deposited data

Results flagged for a closer look

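In 3 of the 84 groups of 4 arrays examined over the tested member probes (3.57%), a single array lay far from the other members of its group by Dixon's criterion. Chance alone gives about 1 in 20 such groups. For the brightest P4ha2 probe, null replicate 1 stood at 8.99, and the other null arrays stood between 9.31 and 9.35. For the dimmer Ndrg1 probe, null replicate 2 stood at 5.37, and the other null arrays stood between 5.94 and 6.03. For the dimmer Pfkp probe, wildtype replicate 4 stood at 5.34, and the other wildtype arrays stood between 5.11 and 5.13, close to background. Wildtype replicate 4 also had the lowest array weight of the 8 (0.371) and the fewest detected probes (18375). The cause was not tested.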

How the results depend on the processing

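No member was called in 21 of 22 alternatives; with no filter 1 member, Aldoc, was called lower (adjusted p = 0.035). Relative to the median of all genes, the median fold lay between -0.18 and -0.10 for the glycolysis genes and between -0.34 and -0.21 for the other hypoxia response genes in all 22 alternatives. The glycolysis median itself was -0.04 under scaling by median absolute deviation, -0.32 under median centring and -0.26 in the deposited log2 table. The median of the other hypoxia response genes was -0.42 under median centring and -0.45 in the deposited log2 table. These moved the median of all genes to 0.06, -0.16 and -0.12. Leaving out 1 array gave -0.21 to -0.12 for the glycolysis genes, -0.39 to -0.23 for the other hypoxia response genes, and 23 to 26 members with a negative fold. Between 26 and 29 members passed the filter in these fits, and the negative share was 85.7% to 96.3%.

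Of all probes, 149 were called, against 10 under scaling by median absolute deviation, the kind of normalization that the study's methods name. The number was 65 in the deposited log2 table, 97 among probes detected on all 8 arrays and 53 by the methods' test. It was 267 with array weights and 50 to 142 with 1 array left out. Fitting replicate number as a block gave 108 called probes and 0 called members, and Ccng2 lost its call (limma, adjusted p = 0.0925). The titles give replicate numbers only, so whether same-numbered samples belong together was not known. The cause of these differences was not tested.

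The fold of Gapdh turned to 0.21 under scaling by median absolute deviation and lay between -0.09 and 0.02 with 1 array left out. Under median centring Pgls gave -0.02 and Rpia -0.08, and Rpia gave -0.03 in the deposited log2 table and between -0.01 and 0.16 with 1 array left out. Ccng2 was also not called with the intensity floor (adjusted p = 0.0524), scaling by median absolute deviation (0.843), median centring (0.0588), the deposited log2 table (0.0813), no filter (0.104) or the methods' test (0.17). Plod2 was called with array weights (adjusted p = 0.0487). The folds of Hk1, Pfkp, Slc16a3, Egln1 and Car9, which were not detected on every array, rest in part on background readings.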
